A study of Dugesia japonica with 4 samples.

Results

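The comparison set the left against the right inside sections of regenerating planarian head tissue. Its members were 331 interior spots of 1216 tissue spots in all, 155 on the left and 176 on the right. A spot is a barcoded patch of a Visium slide that captures polyadenylated RNA from the tissue above it and can hold several cells. Spots were joined into a section where they touched on the hexagonal grid, with at least 5 spots to a section, and a spot was interior when all 6 neighbouring positions lay on tissue. Left and right were array columns below and above the mean column of the spot's own section, and 3 interior spots on that mean were left out. No expression value entered this choice.

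The tissue was the head blastema of wild-type Dugesia japonica at 5 days post amputation (labelled 5 dpa), cut fresh frozen at 8 µm in the direction from anterior to posterior. The 4 libraries, here wells A to D, form 1 group without a contrast of treatment or genotype, and the labels do not say whether they come from different animals. The p-values below therefore concern the spread between these 4 libraries, which may be technical. Array columns ran with the horizontal axis of the slide image in every well. Which face or flank of the animal lay on the left is not given in the sources used here, nor whether every section was laid the same way round.

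A planarian is a flatworm whose body is thin from back to belly and wide from side to side. Beneath its epidermis lie layers of muscle, and the inside of the body is filled with mesenchyme that holds stem cells called neoblasts, nerve cords and gut branches. A blastema forms when neoblasts and their progeny gather under a wound epidermis and differentiate into the missing structures. Signals between the dorsal and the ventral side, among them BMP and its antagonists, pattern the new tissue across its thickness. The feature lists gave every gene model as an identifier and paired none with a gene symbol. None of 30 planarian marker symbols looked for was among them, so no side was named for a cell type or body face, and genes are named by identifier with nothing said of their function.

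The interior was unevenly filled across wells. From well A to well D the left interior held 6, 12, 70 and 67 spots, and the right interior 16, 18, 69 and 73. Sections were 3.25 spots wide in the median of well A and 4.0 in well B, against 6.0 in well C and 5.5 in well D. No left interior spot of well A or B lay more than 1 array column from its section's mean, where neighbouring spots of a row are 2 columns apart. Sections with both sides numbered 3, 7, 12 and 12, and in well A 5 of the 6 left spots but only 4 of the 16 right spots lay in such sections. Wells C and D thus carried most of the spatial separation, and results are given with and without single wells.

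**Figure D1:**
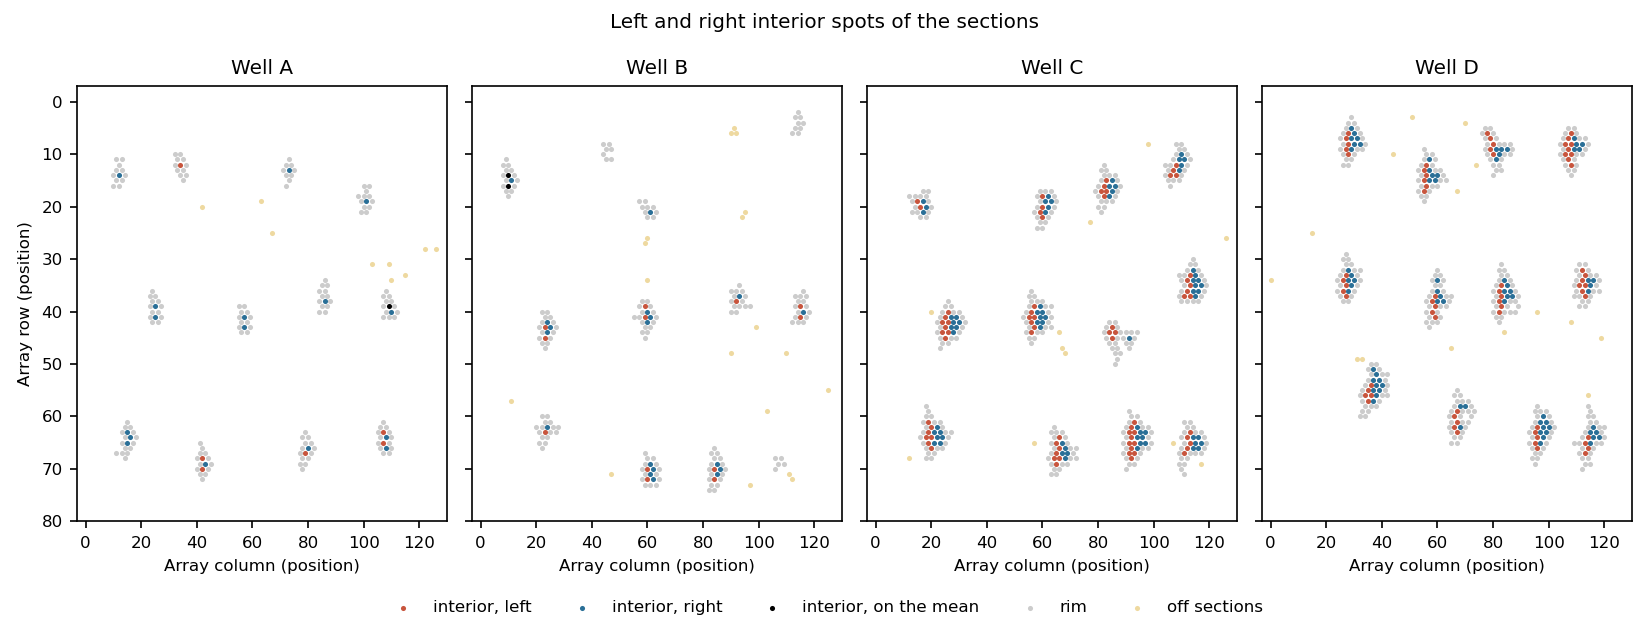
Positions of tissue spots on the arrays of wells A to D, with array column on the horizontal and array row on the vertical axis. Red points are left interior spots (155), blue points right interior spots (176), black points interior spots on the section mean (3), grey points rim spots and pale points spots off the sections. Interior spots are few and central in wells A and B.

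The median left interior spot held fewer unique molecular identifiers (UMIs, counts of single captured RNA molecules) than the median right one in every well when spots were pooled over sections. From well A to well D the median left spot carried 7679, 11872, 11398 and 8166 UMIs, against 9850, 17149, 13588 and 12194 UMIs for the median right spot. The ratio of the left to the right median was 0.745 ± 0.0784 (SD, n = 4), and it lay below 1 in 4 of 4 wells. By section the left median was the higher in 9 of 34 sections with both sides, and in well B in 4 of 7. Among rim spots the same ratio was 1.28 ± 0.264, and above 1 in wells B, C and D. The left interior sums came to 47497, 139632, 850079 and 673176 UMIs in wells A to D, and the right interior sums to 164545, 308058, 986898 and 978983 UMIs.

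Fewer genes were higher on the left than on the right of the interior. Of 4824 genes tested, 65 were higher left (1.35% of those tested) and 240 were higher right (4.98% of those tested). The test was edgeR's quasi-likelihood test on counts summed per well and side, well entering as a block, and genes were called at an adjusted p under 0.05 (Benjamini-Hochberg). Of the 65 genes 43 were higher left in 4 of 4 wells, and of the 240 genes 200 were higher right in 4 of 4. Differences of 2-fold or more were found for 23 and 78 genes. The median log2 fold change (left over right) was 0.87 for the genes higher left and -0.84 for those higher right, against 0.01 for all genes tested.

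The counts of calls rested on the scale, the midline, the test and single wells. With the midpoint of the section as midline in place of its mean column, 11 genes were higher left and 22 higher right (3816 tested). DESeq2 called 16 and 130 genes, and edgeR without the well as a block called none (unadjusted p under 0.05 for 93 and 114 genes). Where no gene differs, a fraction of about 0.05 of genes meets that unadjusted threshold by chance, here and in the counts below. With library totals in place of TMM factors, 527 genes were higher left and 99 higher right, so that 84.2% of the calls were higher left, against 21.3% with TMM. The median log2 fold change of all genes tested was 0.27 on that scale, and no gene called with TMM was called in the opposite direction. Fold changes below are on the TMM scale. When wells A, B, C and D were left out in turn, genes higher left numbered 172, 31, 16 and 20, and genes higher right 354, 156, 78 and 80. With the deeper side thinned to the UMI total of the shallower one in each well, 65 genes were higher left and 225 higher right. With limma on means of log-normalised values 1 and 7 genes passed, and with limma on differences averaged over sections none did (unadjusted p under 0.05 for 312 genes higher left and 228 higher right).

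**Figure D2:**
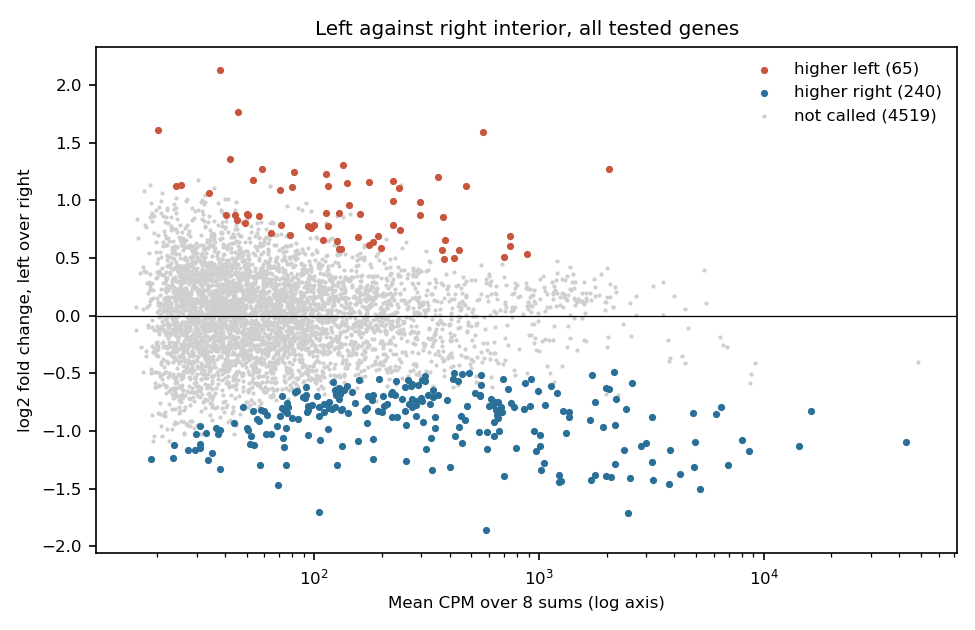
Each point is 1 of 4824 genes, with its mean CPM (counts per 1e6 UMIs, scaled with TMM factors) over the 8 sums on a log axis and its log2 fold change, left over right, on the vertical axis. Red points were higher left (65) and blue points higher right (240), and the blue points reach the most abundant genes.

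The genes higher right were more abundant than those higher left. Their median level was 284 CPM, against 129 CPM for the genes higher left. Among the 1608 genes of highest mean level, at least 88.6 CPM, 43 were higher left and 191 higher right. Among the 1608 genes of lowest mean level, up to 40.0 CPM, 5 were higher left and 16 higher right, where fewer counts give the test less power. Gene models with a Maker identifier, 61 of those tested, gave 1 call on the left and 3 on the right.

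The right interior also spent more of its RNA on few genes. The 50 most abundant genes of each sum took 25.0%, 29.2%, 30.2% and 30.4% of the UMIs of left interior spots in wells A to D. In right interior spots they took 27.4%, 37.7%, 37.4% and 38.6%. The share was higher on the right in 4 of 4 wells, with a left-minus-right difference of -6.57 ± 2.85 percentage points (SD, n = 4). The 240 genes called higher right held 17.6% ± 9.34 of left and 28.6% ± 11.4 of right interior UMIs, a share that describes the call and does not test it. In well A these genes held 3.63% of left and 11.6% of right UMIs, far below the other wells.

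DJKW.1764 showed the largest difference towards the left among the genes that could be named, those higher left in 4 of 4 wells with a mean of at least 50 CPM. Over all 65 genes higher left the log2 fold changes reached 2.13. DJKW.1764 stood at 68.4, 5371, 3363 and 2674 CPM in left interior spots of wells A, B, C and D, against 45.1, 2535, 1556 and 829 CPM in right interior spots. Left exceeded right within each well, although the levels of the sides overlap across wells because well A lay far below the others. The values of well A rest on 4 UMIs on the left and 8 on the right. Over the wells this gave a log2 fold change of 1.27 ± 0.17 (SE, edgeR adjusted p = 0.000576), or 2.41-fold higher on the left. The call was lost with the midpoint as midline (edgeR adjusted p = 0.129), with limma on means over spots or sections (adjusted p = 0.0837 and 0.441) and in wells A and B alone (edgeR adjusted p = 0.160). By its share of all UMIs, without TMM factors, DJKW.1764 was higher left in 31 of the 34 sections with both sides and higher right in 2.

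DJKW.369 was the other identifier named for the left, and it was scarce. It stood at 325, 62.7, 19.8 and 26.1 CPM in left interior spots of wells A to D, against 186, 11.2, 2.52 and 14.9 CPM in right interior spots. Left exceeded right in each well, while the level of well A was above that of every other well on both sides. Outside well A its sums held 9, 16 and 16 UMIs on the left and 3, 2 and 11 on the right of wells B, C and D. Its log2 fold change over the wells came to 1.25 ± 0.33 (SE, edgeR adjusted p = 0.0361). The call was lost when well B, C or D was left out (edgeR adjusted p = 0.124, 0.0912 and 0.0563). It was also lost with limma on means over spots or sections (adjusted p = 0.225 and 0.441) and beyond 1 column (edgeR adjusted p = 0.0808). Wells C and D alone and wells A and B alone lost it too (edgeR adjusted p = 0.126 and 0.176). Of the alternatives in which it was tested, 5 kept the call and 10 lost it.

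DJKW.7323 showed the largest difference towards the right among the genes that could be named. It stood at 0, 641, 257 and 218 CPM in left interior spots of wells A to D, against 67.7, 1142, 1428 and 896 CPM in right interior spots. Right exceeded left in every well. In well A its left spots held 0 UMIs, which allows up to 51.3 CPM (3 counts, for counting error only). Its right spots held 12 UMIs, found in 3 of the 16 spots. Without TMM factors, 1 right spot, 1 to 2 columns from the mean, stood at 809 CPM. The other 15 right spots stood at 38.2 CPM, below that upper limit for the left. The direction in well A beyond counting error thus rests on 1 right spot. Its log2 fold change over the wells came to -1.86 ± 0.24 (SE, edgeR adjusted p = 0.000576), 3.63-fold higher on the right. The call was lost with limma on means over spots or sections (adjusted p = 0.105 and 0.441) and in wells A and B alone (edgeR adjusted p = 0.132). Agreement of the wells was a condition for naming the gene. Sections, which that rule did not use, were mixed, with 9 of 34 sections higher left and 22 higher right.

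DJKW.6593 followed at a higher level, 47th in mean CPM of the genes tested. It stood at 103, 2013, 1313 and 1050 CPM in left interior spots of wells A to D, against 231, 7609, 4879 and 2816 CPM in right interior spots. Right exceeded left within each well, and 6 of 34 sections were higher left and 27 higher right. In well A the sums held 6 UMIs on the left and 41 on the right, and the direction there rests on 1 right spot. That spot, 1 to 2 columns from the mean, stood at 3235 UMIs per 1e6, while the other 15 right spots stood at 108 and the left spots at 126. Its log2 fold change over the wells came to -1.71 ± 0.16 (SE, edgeR adjusted p = 0.000147), 3.28-fold higher on the right. The call was lost with limma on means over spots or sections (adjusted p = 0.122 and 0.441).

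**Figure D3:**
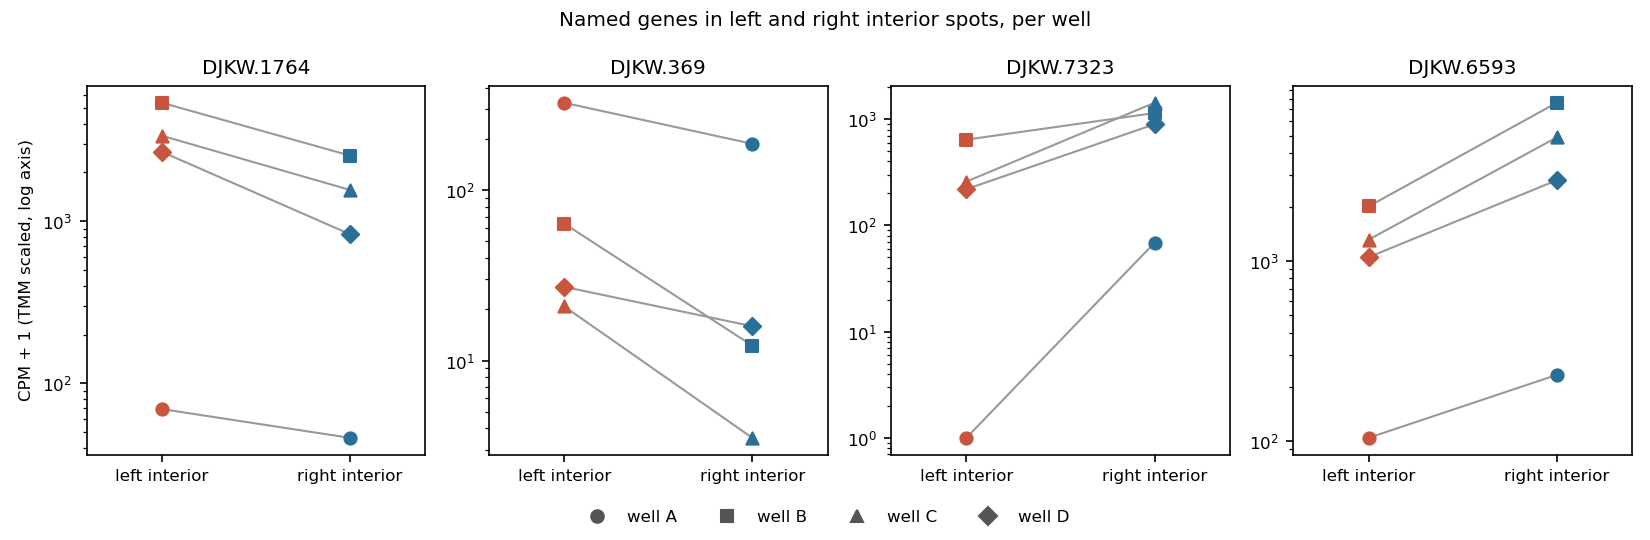
Levels of the 4 named genes in left (red) and right (blue) interior spots, as CPM + 1 on a log axis. Each line joins the sides of 1 well and each symbol is a well. The lines of DJKW.1764 and DJKW.369 slope down to the right and those of DJKW.7323 and DJKW.6593 slope up, in all 4 wells.

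The differences were larger away from the middle of the section. With interior spots more than 1 column from the section mean, which exist on both sides in wells C and D alone, 260 genes were higher left (5.37% of 4840 tested) and 581 higher right (12% of those tested). With all interior spots of the same wells, 60 genes were higher left (0.948% of 6331) and 225 higher right (3.55% of 6331), by the same edgeR test. Each of these fits has 2 wells, which leaves little spread to measure per gene, so its p-values lean on spread shared across genes. Of those 60 and 225 genes, 55 and 217 were also called beyond 1 column. The 65 genes higher left had a median log2 fold change of 1.15 beyond 1 column and 0.86 in all interior spots of wells C and D. The 240 genes higher right had -1.47 beyond 1 column and -0.82 in all interior spots of these wells.

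Across the columns the named genes followed different courses. In well C, DJKW.1764 stood at 5540, 3775 and 1939 UMIs per 1e6 in left spots over 2, 1 to 2 and under 1 column from the mean, and at 1580, 1251 and 918 in right spots under 1, 1 to 2 and over 2 columns. In well D its values over the same places were 3125, 4112, 1255, 833, 325 and 574 UMIs per 1e6. The outermost left place held 15 spots in well C and 5 in well D. DJKW.6593 went the other way in well C, at 469, 1304, 1485, 2132, 4432 and 5230 UMIs per 1e6 from the outermost left to the outermost right place. In well D it stood at 721, 651, 1186, 818, 1651 and 5224, so there the high level lay on the outermost right alone. DJKW.7323 likewise stood between 153 and 227 UMIs per 1e6 in well D up to 1 column right of the mean, at 461 in the next place and at 1882 at the outermost right. DJKW.369 was high at the outermost left alone, at 62.0 UMIs per 1e6 in well C and 109 in well D, against at most 10.1 and 18.5 in the other places. Its course rests on few counts, since all left interior spots together held 16 of its UMIs in well C and 16 in well D.

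In the innermost spots, which touch no rim spot, no gene passed the test. Such spots existed in wells C and D, 9 on the left and 21 on the right, and 1303 genes could be tested (unadjusted edgeR p under 0.05 for 50 genes higher left and 13 higher right). Together these are near the fraction of 0.05 that passes by chance when no gene differs. In the innermost spots the log2 fold change of DJKW.7323 was 0.33 and that of DJKW.6593 was 0.34, opposite in sign to the whole interior, with edgeR adjusted p = 0.995 and 0.999. That of DJKW.1764 was 0.70 and kept its sign (edgeR adjusted p = 0.972). At this depth a difference was not detectable in the innermost spots, which does not show that there was none.

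Genes chosen without a well also leaned the same way in that well. Calls were made with 3 wells and the direction was read in the well left out, for genes with at least 10 UMIs in its interior spots. Of the genes higher right in the other 3 wells, 230 of 253 were higher right in well A and 145 of 152 in well B. For wells C and D these were 77 of 78 and 80 of 80. Of all genes tested that had at least 10 UMIs there, 53.7%, 49.3%, 51.9% and 52.1% were higher right in wells A to D. Of the genes higher left in the other 3 wells, 65 of 107 were higher left in well A and 19 of 21 in well B. For wells C and D these were 15 of 16 and 17 of 20, and of all such genes 46.3%, 50.7%, 48.1% and 47.9% were higher left in wells A to D.

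The share of UMIs taken by these genes gave the same picture by section. Genes higher right in the other 3 wells took 15.0%, 18.9%, 9.61% and 9.68% of left interior UMIs in wells A to D, against 24.4%, 30.6%, 16.4% and 16.7% of right interior UMIs. Their share was higher on the right in 32 of 34 sections. Genes higher left in the other 3 wells took 8.43%, 1.05%, 0.622% and 0.71% of left interior UMIs in wells A to D, against 6.43%, 0.417%, 0.301% and 0.268% of right interior UMIs. Their share was higher on the left in 31 of 34 sections. The lists differ in length between wells, so shares compare sides within a well, not wells with each other.

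Across the columns the genes higher right in the other wells were graded. In the interior of well C they took 3.14%, 8.36% and 12.8% of UMIs from the outermost left place to the one beside the mean, and between 15.9% and 17.3% in the places of the right. In well D they took 4.05%, 7.49% and 11.8% in the left places and between 14.02% and 18.5% in the right ones, with the lowest of these at the outermost right. In the rim of well C, whose spots entered no list, the share was 2.30% at the outermost left, 11.6% just right of the mean and 9.17% at the outermost right. The steps lay mainly on the left side, and the right side of the interior was nearly level in well C.

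**Figure D4:**
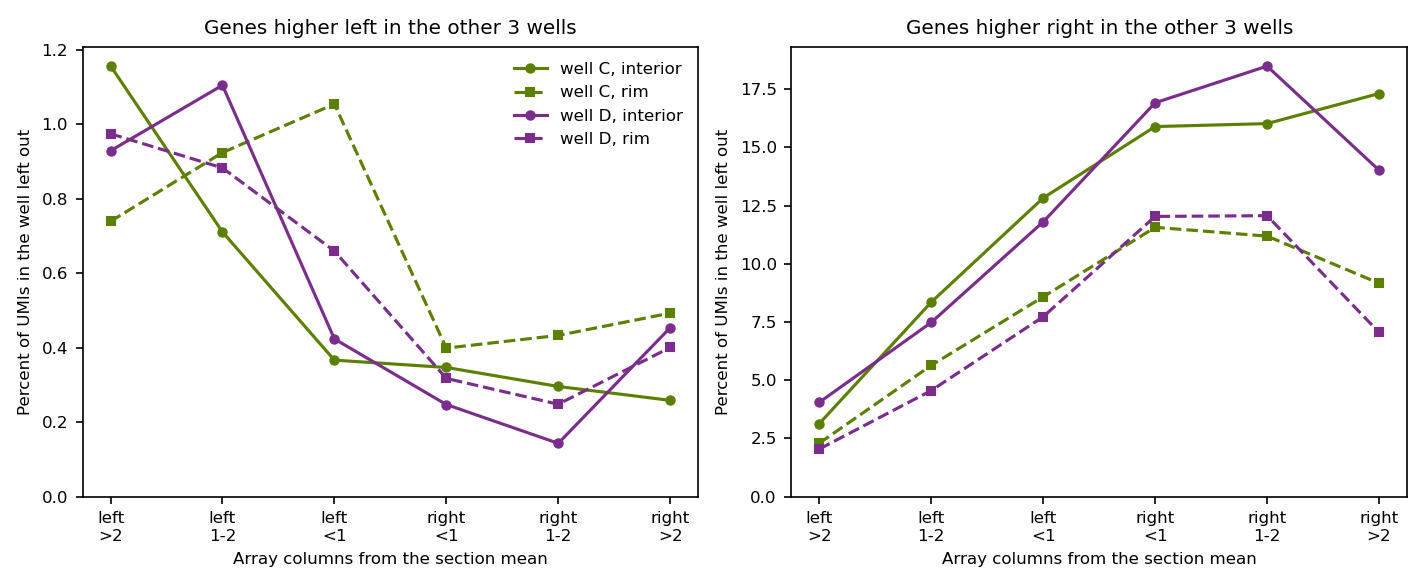
Percent of UMIs from genes called in the other 3 wells, by distance in array columns from the section mean, in wells C (green) and D (purple). Solid lines are interior and dashed lines rim spots. The genes higher left (left panel) take larger shares left of the mean than right of it in the interior, apart from a value of 0.42% left and 0.45% right in well D, and the genes higher right (right panel) climb from 3.14% and 4.05% at the outermost left of the interior.

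Log2 ratios of left over right were correlated between wells across the 2695 genes of at least 50 CPM. Pearson's r was 0.54 between wells C and D, 0.43 and 0.41 for well B with these, and from 0.18 to 0.32 for pairs with well A. Across all 4824 genes tested r was lower, at 0.40 for wells C and D, 0.28 and 0.27 for well B with these, and from 0.10 to 0.23 for pairs with well A. All wells share their gene models and the same choice of sides, and genes are not independent replicates.

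The same interior spots divided along the rows of the array differed in few genes. Between upper and lower interior spots, 172 and 158 in number, 4 genes were higher in the upper spots (0.0824% of 4852 tested) and 1 in the lower (0.0206% of 4852), by edgeR's quasi-likelihood test. At an unadjusted p under 0.05 these were 104 and 109 genes, against 421 higher left and 664 higher right in the left-right comparison. In wells C and D alone 19 genes were higher in the upper and 13 in the lower spots. Without well C or well D none was higher in the upper spots (unadjusted p under 0.05 for 56 and 65 genes). Whether the axes differ was not tested gene by gene.

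The rim of the same sections leaned the same way for most genes called in the interior. The rim held 443 left and 379 right spots, none of them shared with the interior. By the same edgeR test 372 of 7539 genes were higher in the left rim (4.93% of those tested) and 357 in the right rim (4.74% of those tested). Of the 65 genes higher left inside, 26 were higher in the left rim, which is 40.0% of the 65 and 6.99% of the rim's 372. Of all genes tested inside, 3.20% of those tested in the rim were higher in the left rim. Of the 240 genes higher right inside, 174 were higher in the right rim, which is 72.5% of the 240 and 48.7% of the rim's 357, against 7.05% of all. Genes called in opposite directions inside and at the rim numbered 2 among those higher left inside and 0 among those higher right inside.

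For the genes higher right the left-right difference was, in the median, no smaller at the rim than inside. Their median log2 fold change was -1.0 at the rim and -0.84 inside, and for 154 of the 236 tested in both it lay further right at the rim. For the 65 genes higher left it was the other way. Their median was 0.31 at the rim and 0.87 inside, and 19 of the 65 lay further left at the rim. For all genes tested in both zones the rim median was -0.05. Both sets were chosen on their interior values, which by itself favours larger medians inside, so a smaller rim median does not show a weaker rim. In the direct comparison of interior and rim below, 2 of the 65 and 0 of the 240 passed. The genes higher right mostly had their highest level in the right interior. Of the 240 genes, 229 had their highest mean of left rim, left interior, right interior and right rim in the right interior, and 8 had it in the right rim. Of all genes tested 44.1% were highest in the right interior and 14.5% in the right rim. The 65 genes higher left were divided, 29 of them being highest in the left rim and 30 in the left interior, against 24.3% and 17.1% of all genes tested. These counts are a description and no test, since the genes were chosen on the same interior sums, by which none higher right could be highest in the left interior and none higher left in the right interior.

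The genes named above differed in this. DJKW.7323 averaged 290 ± 268 CPM in left and 990 ± 658 CPM in right interior spots, and 237 ± 160 CPM in the left and 2083 ± 2166 CPM in the right rim (SD, n = 4, scaled over all 4 places). DJKW.6593 averaged 1168 ± 812 CPM in left and 4313 ± 3394 CPM in right interior spots, and 1360 ± 1143 CPM in the left and 10321 ± 9319 CPM in the right rim. Both were thus at their highest mean in the right rim, where their rim log2 fold changes were -2.99 ± 0.29 and -3.27 ± 0.49 (SE, edgeR adjusted p = 0.000304 and 0.00320). DJKW.1764 averaged 2999 ± 2231 CPM in left and 1378 ± 1148 CPM in right interior spots, and 2332 ± 1486 and 1052 ± 797 CPM in the left and right rim. Its log2 fold changes in the zones were 1.27 ± 0.17 inside and 1.27 ± 0.13 at the rim (SE, edgeR adjusted p = 0.000339 at the rim). On the same scale, the left rim held DJKW.369 at 101, 109, 91.2 and 126 CPM in wells A to D. Left interior spots held 281, 63.4, 21.2 and 28.4 CPM of it. The right rim held 52.2, 45.1, 29.6 and 44.6 CPM, and the right interior 178, 12.2, 2.83 and 17.5 CPM. This gene was thus highest in the left rim in wells B, C and D, and in the left interior in well A. At the rim edgeR called it higher left by 1.32 ± 0.15 log2 units (SE), with an adjusted p of 0.000646.

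**Figure D5:**
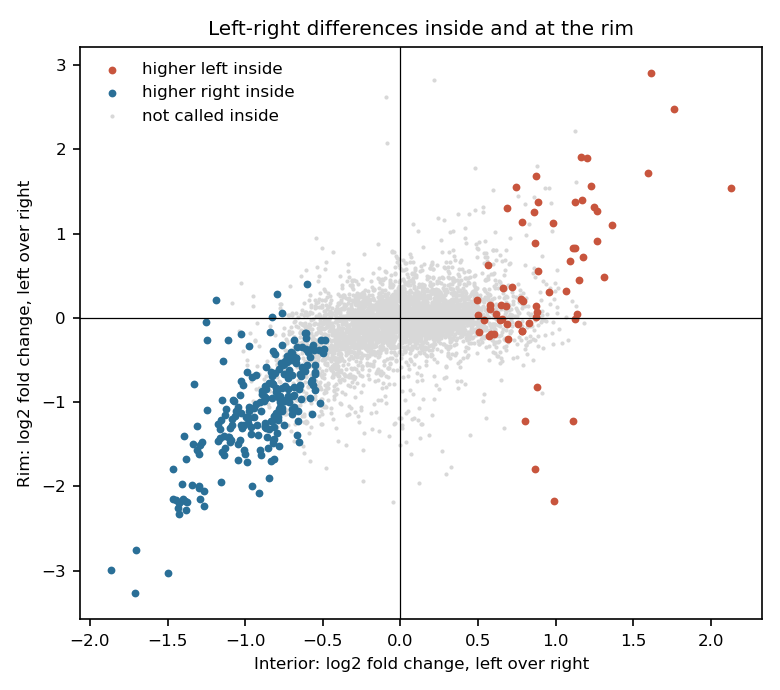
Each point is a gene tested in both zones, with its log2 fold change, left over right, inside on the horizontal and at the rim on the vertical axis. Red points were higher left inside and blue points higher right inside. Of the blue points 231 of 236 lie below 0 on the rim axis, against 57.9% of all genes shown, and of the red points 46 of 65 lie above 0, against 42.1% of all.

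The signed left-minus-right difference was also compared directly between interior and rim. The number of genes that passed moved widely with the spots used. A larger signed difference inside can go with a rim that leans right, so it need not be the stronger difference. With all 4 places per well in 1 edgeR fit, 4 genes had a larger left-minus-right difference inside than at the rim (0.0524% of 7640 tested) and 5 a smaller one (0.0654% of 7640). In simulated counts this test recovered 33% of genes with a 2-fold difference, so genes short of the threshold may still lean unequally. The 4 genes named above did not pass it. With spots beyond 1 column 151 and 161 of 7113 genes passed, and without the filter on low counts 62 and 35. In wells C and D alone the counts were 58 and 15, and without well D no gene passed (unadjusted p under 0.05 for 169 and 208 genes).

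DJKW.3481 and DJKW.26548 were higher in the left rim, and neither passed the test inside (edgeR adjusted p = 0.807 and 0.594). DJKW.3481 stood at 148, 56.4, 216 and 214 CPM in left interior spots of wells A to D, against 64.8, 85.1, 265 and 248 CPM in right interior spots. In the rim it stood at 1099, 830, 1898 and 1911 CPM on the left, against 246, 81.9, 415 and 229 CPM on the right. The sides overlap inside, with left above right in well A alone, and are apart at the rim. Its difference of log2 fold changes, interior minus rim, was -2.75 ± 0.31 (SE, edgeR adjusted p = 0.000129). It missed the threshold without well D (edgeR adjusted p = 0.0503). DJKW.26548 averaged 47.8 ± 42.4 CPM in left and 45.1 ± 32.6 CPM in right interior spots, and 903 ± 332 CPM in the left and 129 ± 62.7 CPM in the right rim. Its difference of log2 fold changes was -2.63 ± 0.42 (SE, edgeR adjusted p = 0.0085), and the call was lost when well C or well D was left out (edgeR adjusted p = 0.269 and 0.230).

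In the other direction DJKW.18115 was the one gene that met the rule for naming. Inside, its log2 fold change was 0.67 ± 0.19 (SE) and did not pass the test (edgeR adjusted p = 0.0512). It passed inside in wells C and D alone, with all interior spots or those beyond 1 column (edgeR adjusted p = 0.0317 and 0.0120). At the rim it was higher right, at -1.31 ± 0.24 (SE, edgeR adjusted p = 0.0104). It stood at 14.8, 28.2, 234 and 232 CPM in left interior spots of wells A to D, against 0, 4.05, 147 and 180 CPM in right interior spots. In the rim it stood at 0, 6.74, 56.9 and 41.6 CPM on the left, against 0, 3.34, 137 and 123 CPM on the right. The interior of wells A and B held 1 and 4 UMIs on the left and 0 and 1 on the right. The difference of log2 fold changes was 1.85 ± 0.33 (SE, edgeR adjusted p = 0.0303), and the call was lost when well C or well D was left out (edgeR adjusted p = 0.501 and 0.627) and with DESeq2 (adjusted p = 0.672). DJKW.16686, named after its values were seen, had a larger difference (3.0 ± 0.34, edgeR adjusted p = 0.000195), but it was at 0 CPM in the interior of wells A and B. In wells C and D it stood at 247 and 1058 CPM in left and 136 and 557 CPM in right interior spots, and at 26.2 and 49.1 CPM in the left and 74.0 and 294 CPM in the right rim.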

How the data were processed

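The authors deposited raw UMI counts per feature and tissue spot, written by Space Ranger 2.0.1 per the file headers. The submitters' processing notes also name Seurat. The genome build with its annotation is not given in the sources used here. All wells list the same 38792 features, and the wells hold 1499569 to 4395756 UMIs. No pair of wells agreed within sampling noise (over genes, chi-square per degree of freedom was at least 10.4). Tissue spots of different wells shared 19 to 112 barcodes per pair, which mark array positions.

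Counts were summed per well and side and tested by the quasi-likelihood F-test of edgeR 4.0.16 (R 4.3.3) after filterByExpr and TMM, with the well as a block because both sides belong to the same library. An SE is the size of the log2 fold change divided by the root of F. The interior-against-rim test used 16 sums with side, zone and their interaction. On simulated data the left-right test recovered, among 4539 genes, 88% at a 2-fold and 33% at a 1.5-fold change, with 2 false calls. The changed genes had a mean of at least 20 counts, and all genes had 1 common dispersion.

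Named genes had an adjusted p under 0.05, 1 direction in 4 of 4 wells and a mean level no lower than 50 CPM, taken by size of fold, with at most 2 identifiers per direction. Per-well ratios used 1 CPM added to each side. Alternatives covered limma 3.58.1, DESeq2 1.42.0, library totals, filters, midlines, depth and single wells. Members, lists and tests were chosen with earlier results of these data known.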

Additional observations from a re-analysis of the deposited data

Results flagged for a closer look

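Of 26 sets of 4 well values, 6 held a well far from the other 3, while chance alone gives about 1.3. In all 6 it was well A. DJKW.369 stood at 325 CPM in left and 186 CPM in right interior spots of well A, against at most 62.7 and 14.9 CPM in the other wells. The genes called higher right took 3.63% of left and 11.6% of right interior UMIs in well A, against at least 20.9% and 33.0% in the other wells. The 50 most abundant genes took 27.4% of right interior UMIs in well A, against at least 37.4% elsewhere. For DJKW.18115 the difference of log2 ratios, interior minus rim, was 3.98 in well A, where it rests on 1 UMI, against 1.70 to 1.92 in the others. Well A also had the fewest interior spots (6 left and 16 right), and the part of that in these values was not tested.

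The left-right difference itself differed between interior and rim, by edgeR's interaction test, for 4 genes with a larger and 5 with a smaller left-minus-right difference inside. Those named had a difference of log2 fold changes of 1.85 (DJKW.18115), -2.75 (DJKW.3481) and -2.63 (DJKW.26548).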

How the results depend on the processing

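No gene called between left and right was called in the opposite direction under any alternative run. Genes higher left and higher right numbered 527 and 99 with library totals, 16 and 130 with DESeq2, 1 and 7 with limma on means over spots, 0 and 0 with limma on means over sections, 11 and 22 with the midpoint of the section as midline (3816 genes tested), 260 and 581 beyond 1 column, 0 and 0 at least 2 steps from the rim and 13 and 60 in wells A and B alone. Of these calls, 0 of 1 and 7 of 7 (limma on means over spots), 7 of 11 and 22 of 22 (midpoint) and 2 of 13 and 53 of 60 (wells A and B) were among the 65 and 240. Without the replicate block they numbered 0 and 0 (unadjusted edgeR p under 0.05 for 93 and 114 genes); the pairing is that both sides belong to 1 library. Leaving out 1 well gave 16 to 172 higher left and 78 to 354 higher right, of which 10 to 62 and 76 to 240 were among the 65 and 240. Counts, though not always the genes, stayed within 1.5 times with sums thinned to equal totals (65 and 225, with 46 and 209 shared) and with sections of 10 or more spots. The same held without a filter on low counts (39 and 235 shared). It also held with sections that hold both sides (42 and 194 shared) and with wells C and D alone (36 and 194 shared). The last 2, wells A and B alone, wells C and D alone for the other comparisons and single wells left out of the upper-lower one were chosen after seeing the data.

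Larger and smaller signed left-minus-right differences inside than at the rim numbered 2 and 2 with library totals and 4 and 8 with DESeq2. They numbered 62 and 35 without a filter, 151 and 161 beyond 1 column and 58 and 15 in wells C and D alone. Without the replicate block they numbered 0 and 0 (unadjusted edgeR p under 0.05 for 63 and 118 genes). Leaving out 1 well gave 0 to 16 and 0 to 9. For upper against lower, wells C and D alone gave 19 and 13, and leaving out 1 well 0 to 10 and 0 to 8. For the 4 genes named between left and right, of 69 values 44 kept call and direction, 23 kept the direction alone and 2 turned, DJKW.7323 (0.33) and DJKW.6593 (0.34) at least 2 steps from the rim.

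The mean share of UMIs in wells left out was 2.70% on the left and 1.85% on the right for genes higher left (10.3% and 8.17% with library totals). For genes higher right it was 13.3% and 22.0% (5.16% and 10.6% with library totals, whose lists differ), and on the left 6.80% beyond 1 column, over wells C and D. Leaving out 1 well gave 0.796% to 3.40% left and 0.328% to 2.38% right for the first and 11.4% to 14.5% left and 19.1% to 23.9% right for the second. These means move with the wells they hold. For genes higher left, well A stood at 8.43% on the left and no other well above 1.05%. For genes higher right, all left interior spots of wells C and D gave 9.61% and 9.68%, the values to set beside those beyond 1 column. Any further cause of these shifts was not tested. The lists beyond 1 column could not be refitted without well C or D. Wells A and B hold few interior UMIs, which limits their ratios.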
